A study of Mus musculus with 52 samples.

Results

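Tug1 is a long noncoding RNA that most mouse tissues express, and the 6 genes described here were chosen by their measured pattern in testes: their level in Tug1-/- testes differed from wild type and moved back toward wild type when Tug1 was supplied from a transgene. They are Aqp2, Stk32a, Adam23, Nat8, Gm28181 and Vmn1r181, 6 of the 34865 genes listed for testes. In the group means, 5 of them were higher in Tug1-/- testes than in wild type by 1.61-fold to 2.67-fold, and 1, the noncoding Gm28181, was lower. In rescue testes all 6 lay within 1.5-fold of their wild-type mean. Because the testes contrasts chose these genes, their testes values are a description and support nothing by themselves. The choice did not use their level in other tissues. Their relatives, their neighbours on the chromosome and the cell type markers are other genes, but were read from the same testes group means. They share the Tug1-/- mice with the members and are a description too.

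RNA-seq of polyadenylated RNA from male mice was compared between genotypes. Testes came from 4 wild-type mice, 4 Tug1-/- mice and 3 rescue mice, and 7 further tissues were compared between wild type and Tug1-/-: cultured mouse embryonic fibroblasts (MEFs), spleen, eyes, liver and heart with 3 samples per genotype, prostate with 3 wild-type and 2 Tug1-/- samples, and brain, whose libraries are not among the samples of this series. The Tug1-/- allele, Tug1_tm1.1Vlcg, is a deletion in which a lacZ cassette takes the place of the gene body while the promoter and first exon stay. Rescue mice were Tug1-/-, carried the transgene tg(Tug1) under a doxycycline-responsive promoter and the activator CAGs-rtTA3, and were kept on doxycycline food. The transgene encoded a Tug1 form without the 5' part of the RNA and had integrated at random, so that it supplied RNA from outside the Tug1 locus. The labels give a C57BL/6J/129S6 background for all of these groups. By the study's methods the knockout line was crossed back to C57BL/6J, whereas the rescue mice also descend from a C57BL/6J transgenic line and from a B6N.FVB line that carries rtTA3, so that strain and transgene cannot be told apart in the rescue group. The testes labels differ beyond Tug1 itself, since wild type is marked as having no Neo cassette while Tug1-/- and rescue are both marked with Neo and LacZ, although the study's methods describe a colony bred from animals without the neomycin gene. Ages are not given in the labels. Whether the other 2 testes groups also received doxycycline is not stated in the sources used here, so that the drug and the transgene cannot be told apart in the rescue group.

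Every value below is a group mean that the authors computed, in TPM, a unit that expresses a gene's reads per length as a share of the library. Values of single mice were not analysed here, so no mean has an error, the groups cannot be checked for overlap, and no difference was tested. A ratio of 2 means can be set by 1 library. A gene was counted as past the fold where 2 group means differed at least 1.5-fold, among genes with at least 1 TPM in a group compared, which left 22669 genes in testes.

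The 5 coding genes have known roles that lie largely outside the testis. Aqp2 encodes the water channel that vasopressin moves to the surface of collecting duct cells in the kidney. Nat8 encodes an acetyltransferase of the endoplasmic reticulum that completes mercapturic acids, the excreted form of glutathione conjugates, in kidney and liver. Adam23 encodes a membrane protein of the ADAM family that lacks protease activity and takes part in cell adhesion and, in brain, binds the secreted protein LGI1. Stk32a encodes a serine/threonine kinase, and Vmn1r181 a receptor of the V1R family through which neurons of the vomeronasal organ sense pheromones. Gm28181 is annotated as a long intergenic noncoding RNA, and no function is stated for it here.

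The Tug1 level bears out the labels. Mean Tug1 was 40.1 TPM in wild-type testes and 0.885 TPM in Tug1-/- testes, or 2.21% of wild type. The rescue mean was 1.60 TPM, 1.81-fold the Tug1-/- mean and 4.0% of wild type, so that Tug1 RNA in whole rescue testes stayed far below the wild-type level. In the 7 other tissues Tug1-/- samples held between 0.0825% and 0.512% of the wild-type mean.

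The sequences of 4 promoters and 1 transcript are shown because the results below turn on 2 pairs of adjacent genes, of which one pair followed the same course in testes and the other did not, and on the only member that was lower without Tug1. Promoters are from RefSeq (GRCm38.p6), from 250 bases before to 50 bases after a transcription start. Capitals mark matches on either strand to 6 short motifs. These were TGACGTCA, the full cyclic AMP response element, and its shorter form TGACG, which overlaps it, then TATAAA for the TATA box, AGGTCA for receptors of the thyroid hormone and retinoid kind, AGAACA for androgen and glucocorticoid receptors, and GGGCGG for Sp1. RefSeq promoters were found for 4 of the 6 members, Aqp2, Adam23, Nat8 and Vmn1r181.

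Aqp2 and its neighbour Aqp5 lie in the same orientation on chromosome 15. The Aqp2 window is chr15:99578806-99579105, plus strand, and that of Aqp5 is chr15:99590778-99591077, plus strand.
Aqp2: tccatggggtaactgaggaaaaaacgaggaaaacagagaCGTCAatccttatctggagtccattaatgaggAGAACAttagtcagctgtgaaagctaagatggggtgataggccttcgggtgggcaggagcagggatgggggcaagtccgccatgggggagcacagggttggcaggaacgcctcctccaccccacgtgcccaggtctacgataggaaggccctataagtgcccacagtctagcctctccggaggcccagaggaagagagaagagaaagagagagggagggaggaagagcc
Aqp5: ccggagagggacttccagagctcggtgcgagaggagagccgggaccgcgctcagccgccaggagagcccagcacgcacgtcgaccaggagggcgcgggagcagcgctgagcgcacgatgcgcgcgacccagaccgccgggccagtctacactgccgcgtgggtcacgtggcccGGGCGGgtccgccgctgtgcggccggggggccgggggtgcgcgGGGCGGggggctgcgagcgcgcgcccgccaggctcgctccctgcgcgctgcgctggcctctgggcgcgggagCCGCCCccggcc

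Nat8 has 2 starts in RefSeq, and the one shown lies 197 bases upstream of the gene model used for counting, in chr6:85832230-85832529, minus strand. Its neighbour Nat8f5 has the window chr6:85820923-85821222, minus strand.
Nat8: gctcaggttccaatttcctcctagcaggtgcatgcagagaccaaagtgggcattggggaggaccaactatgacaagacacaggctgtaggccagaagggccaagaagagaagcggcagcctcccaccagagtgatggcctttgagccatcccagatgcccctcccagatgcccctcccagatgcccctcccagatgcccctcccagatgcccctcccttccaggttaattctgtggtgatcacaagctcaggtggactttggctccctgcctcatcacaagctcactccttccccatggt
Nat8f5: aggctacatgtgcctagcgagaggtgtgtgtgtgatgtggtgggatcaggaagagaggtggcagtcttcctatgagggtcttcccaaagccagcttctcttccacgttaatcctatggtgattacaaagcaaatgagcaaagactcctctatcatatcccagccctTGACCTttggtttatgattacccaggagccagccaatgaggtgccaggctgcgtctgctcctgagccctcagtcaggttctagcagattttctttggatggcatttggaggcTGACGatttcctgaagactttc

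The first exon of Gm28181, chr1:151550762-151550943, minus strand, is 182 bases of a transcript of 687 bases in 3 exons (GENCODE, GRCm38). Its longest open reading frame from a start codon has 67 codons.
Gm28181: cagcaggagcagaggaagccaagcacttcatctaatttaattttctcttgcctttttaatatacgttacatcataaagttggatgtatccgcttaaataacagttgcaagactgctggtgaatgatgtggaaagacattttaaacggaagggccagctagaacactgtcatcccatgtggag

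The Aqp2 promoter held 1 TGACG, 211 bases before the start, and 1 AGAACA, 179 bases before it. TGACG was in 20.8% of the 32851 promoters given, and AGAACA in 19.0%, so these are frequent matches. TGACGTCA was in 1.79% of promoters and in none of the windows of the members. TATAAA was in 13.6% of promoters and in no member's window either. The Aqp5 promoter held 3 matches to GGGCGG, a motif found in 35.7% of promoters, and had a GC content of 79.7% against 56.0% for Aqp2 and a median of 52.7% over all promoters. The Nat8 window shown held none of the 6 motifs, its other start held 1 AGAACA 19 bases before the start, and Nat8f5 held 1 TGACG and 1 AGGTCA, the latter in 16.3% of promoters. The longest run of bases common to the Nat8 and Nat8f5 windows shown was 8. The windows of Adam23, with a GC content of 70.0%, and of Vmn1r181, with 36.7% and a RefSeq start 9346 bases downstream of that of the gene model, held none of the motifs. A match is only a run of letters, and a missing match says nothing of the factor concerned.

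Aqp2 (ENSMUSG00000023013.4, chr15:99579056-99584545, plus strand) showed the largest ratio of the 6. Its mean was 4.93 TPM in wild-type testes, 13.2 TPM in Tug1-/- testes and 6.48 TPM in rescue testes. The Tug1-/- mean was 2.67-fold that of wild type, and the rescue mean was lower than the Tug1-/- mean by 2.03-fold. Rescue thus returned 81.2% of the difference between Tug1-/- and wild type, and the rescue mean stayed 1.32-fold above wild type.

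Stk32a (ENSMUSG00000039954.8, chr18:43207697-43317481, plus strand) was a low gene in testes, at 1.22 TPM in wild type, 2.78 TPM in Tug1-/- and 1.5 TPM in rescue. These means correspond to a ratio of 2.28 between Tug1-/- and wild type and of 1.86 between Tug1-/- and rescue. The share of the difference returned, 82.4%, was close to that of Aqp2.

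Adam23 (ENSMUSG00000025964.15, chr1:63445891-63596276, plus strand) had the lowest levels, with means of 0.849 TPM in wild type, 1.58 TPM in Tug1-/- and 0.928 TPM in rescue. It came above the 1 TPM filter only through its Tug1-/- mean. The Tug1-/- mean was 1.86-fold the wild-type mean and 1.70-fold the rescue mean, the smallest ratio to rescue of the 6, and 89.2% of the difference was returned.

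Nat8 (ENSMUSG00000030004.6, chr6:85830388-85832082, minus strand) was the member with the highest Tug1-/- mean. It stood at 9.57 TPM in wild type, 16.5 TPM in Tug1-/- and 8.23 TPM in rescue. The Tug1-/- mean was 1.73-fold that of wild type and 2.01-fold that of rescue. Since the rescue mean lay 1.16-fold below wild type, the share returned was 119%.

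Vmn1r181 (ENSMUSG00000097425.3, chr7:23974615-23988139, plus strand) overshot further. The means were 2.65 TPM in wild type, 4.26 TPM in Tug1-/- and 1.88 TPM in rescue. Its ratio of 1.61 between Tug1-/- and wild type was the smallest of the 6 and its ratio of 2.27 between Tug1-/- and rescue the largest. The rescue mean was 1.41-fold below the wild-type mean, and 148% of the difference was returned.

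Gm28181 (ENSMUSG00000100357.1, chr1:151549245-151550943, minus strand) took the opposite course. Its mean was 10.8 TPM in wild type, 4.63 TPM in Tug1-/- and 9.39 TPM in rescue. Wild type was thus 2.34-fold above Tug1-/-, rescue was 2.03-fold above Tug1-/-, and 77.0% of the difference was returned. It was the only noncoding gene among the 6. Adam23, the other member on chromosome 1, lies 88.1 Mb away.

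**Figure D1:**
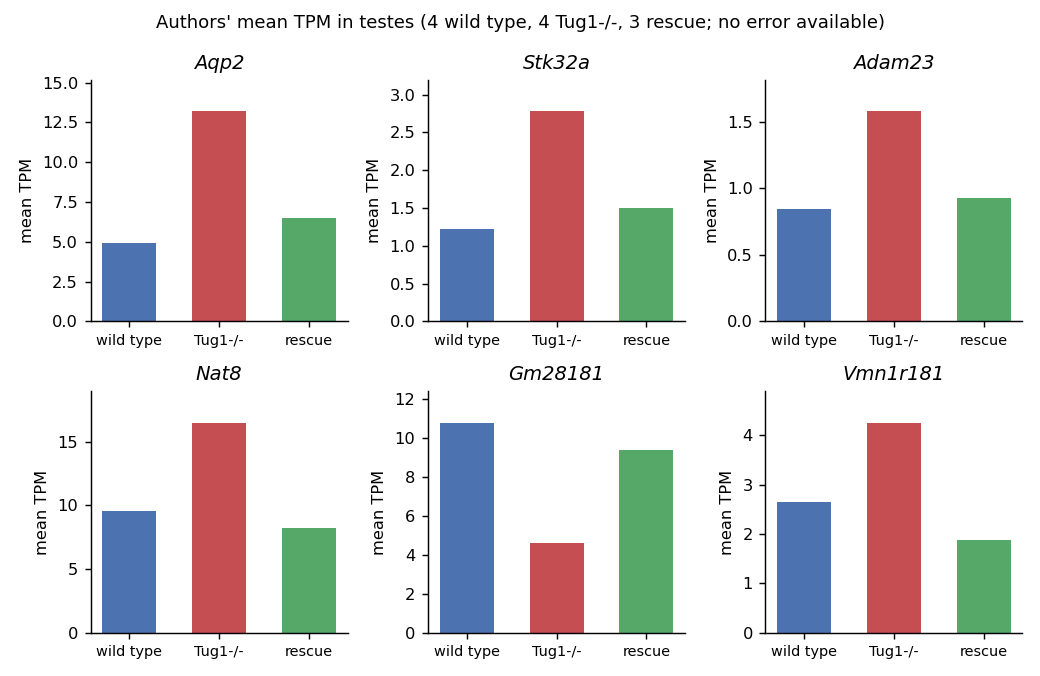
Mean TPM (vertical axis, from 0) of each gene in wild-type, Tug1-/- and rescue testes, with 1 bar per group mean and no error because only means were analysed. Aqp2, Stk32a, Adam23, Nat8 and Vmn1r181 peak in Tug1-/-, Gm28181 dips there from 10.8 to 4.63 TPM, and each rescue bar is closer to wild type than to Tug1-/-.

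Both testes contrasts share the Tug1-/- mice, so a Tug1-/- mean that happened to be high or low would by itself give opposite signs in the 2 ratios. Over the 22669 genes with at least 1 TPM, 3.12% were at least 1.5-fold higher in Tug1-/- than in wild type and 3.78% lower. Against Tug1-/-, 1.72% were at least 1.5-fold higher in rescue and 3.97% lower. A gain past 1.5-fold followed by a loss past 1.5-fold was seen in 214 genes, 0.944% of those with at least 1 TPM, and the opposite course in 159 genes, 0.701%. All 6 members were among these 373 genes, as their choice fixes. The counts for families and lists below stand beside these shares, under which a short list would often hold no such gene. The median log2 ratio over all genes was 0.03 for Tug1-/- over wild type and 0.01 for rescue over Tug1-/-.

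Of the 373 genes, 298 had no group mean of 5 TPM or more, 125 were protein coding, and in 155 the rescue mean lay inside the range between wild type and Tug1-/-. By that range 4 of the 6 members were inside, and Nat8 and Vmn1r181 were outside. Among all 22669 genes the members did not have the most extreme ratios. Aqp2 ranked 131 from the top for Tug1-/- over wild type, Stk32a 174, Adam23 300, Nat8 395 and Vmn1r181 530, while Gm28181 ranked 380 from the bottom.

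**Figure D2:**
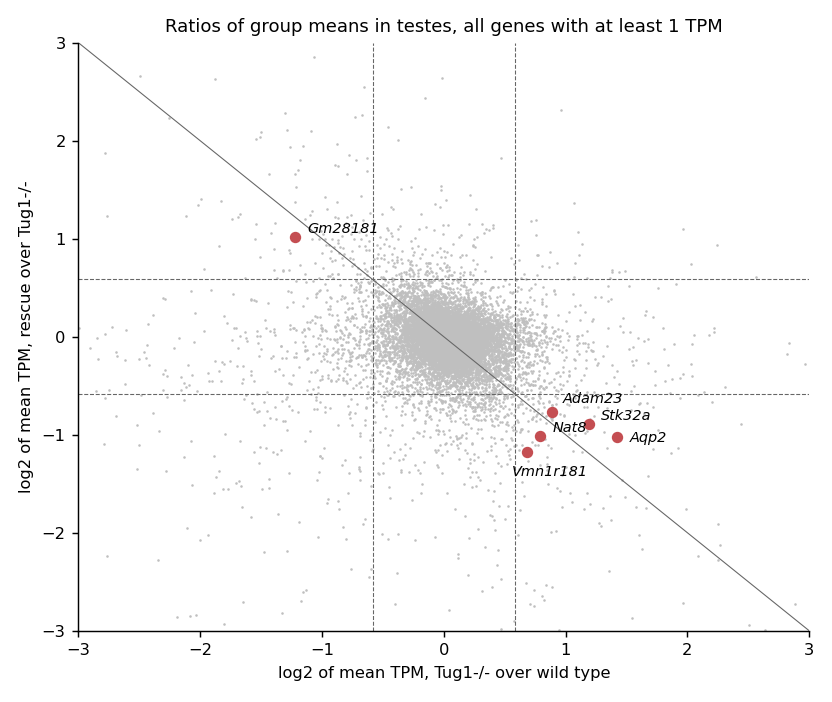
Each grey point is 1 of 22410 genes with at least 1 TPM in a testes group, placed by the log2 ratio of mean TPM in Tug1-/- over wild type (horizontal) and in rescue over Tug1-/- (vertical), with 199 genes beyond the axes and 60 with a group mean of 0 left out. Dashed lines mark 1.5-fold and the solid line a full return to wild type: Aqp2, Stk32a and Adam23 lie above that line on the right, Nat8 and Vmn1r181 below it, and Gm28181 sits at the upper left, just below the line.

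The genes that lay closest to the members in this plane of ratios, among the 20644 genes with at least 1 TPM in each group, were of mixed kinds. For Aqp2 the closest was Insl3, a peptide hormone of Leydig cells, at 56.9 TPM in wild type, 144 TPM in Tug1-/- and 65.5 TPM in rescue, and the next was Stk32a itself. Close to Stk32a were the miRNA Gm22773 and Hspb8, a small heat shock protein, the latter with means of 2.31, 5.01 and 2.71 TPM in the same order. Nat8 was closest to Mir3569 and to Slc27a2, an acyl-CoA synthetase of fatty acid metabolism, at 1.49, 2.56 and 1.19 TPM. Vmn1r181 was closest to the noncoding AC154816.2 and to Lcn2, a secreted lipocalin, at 219, 342 and 159 TPM. The pairs for Adam23, Gm45454 and Gm22043, and for Gm28181, Mir7022 and Gm26051, were pseudogenes or small RNAs of 5.01 TPM or less in every group. The distance on the log2 scale ranged from 0.0548 to 0.266 over these 12 pairs.

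No other aquaporin with at least 1 TPM shared the course of Aqp2, which 0.944% of all genes took, so the count says nothing particular of the family. Of the 10 other aquaporins listed, 8 reached 1 TPM, of which 2 were past 1.5-fold higher in Tug1-/- and 1 lower, and none of the 8 was past 1.5-fold between rescue and Tug1-/-. Their median log2 ratio was 0.17 for Tug1-/- over wild type and -0.02 for rescue over Tug1-/-. The 2 higher ones kept their Tug1-/- level in rescue. Aqp5, a water channel of glands, was at 0.666 TPM in wild type, 3.10 TPM in Tug1-/- and 3.21 TPM in rescue. Aqp8, a channel for water and ammonia, was at 38.2, 77.1 and 79.3 TPM in the same order. Aqp1, a water channel of many epithelia and vessels, was lower in Tug1-/- and lower again in rescue, at 3.51, 1.94 and 1.48 TPM. The 3 most abundant aquaporins of wild-type testes differed little: Aqp7, which also carries glycerol, was at 161, 164 and 160 TPM, Aqp11 at 123, 119 and 118 TPM, and Aqp9 at 63.6, 59.9 and 62.4 TPM. Aqp3, another water and glycerol channel, was at 2.58, 3.23 and 2.89 TPM.

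The hormone, receptors and signalling genes of the vasopressin pathway, which acts on Aqp2 in the kidney, were counted too. Of 9 listed, which run from vasopressin and its receptors through the G protein and adenylyl cyclases to the kinase and Creb1, 7 reached 1 TPM and none was past 1.5-fold in either contrast, with a median log2 ratio of 0.04 for Tug1-/- over wild type. The genes under 1 TPM were Avp, the vasopressin gene, at 0.156 TPM in wild type, 0.514 TPM in Tug1-/- and 0.321 TPM in rescue, and Avpr2. The receptor gene Avpr2 was at 0.0456 TPM in wild type, 0.0255 TPM in Tug1-/- and 0.0575 TPM in rescue. Of the other collecting duct markers, 6 genes with Avpr2 among them, the summed level was 3.38 TPM in wild type, 4.31 TPM in Tug1-/- and 4.04 TPM in rescue, and 1 of the 6, Aqp3, reached 1 TPM. The kidney list of 9 genes summed to 10.9, 3.03 and 2.90 TPM, of which Cdh16 made up 7.85, 0.275 and 0.0936 TPM. Aqp2 at 13.2 TPM in Tug1-/- testes thus exceeded the sums of both kidney lists there.

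In the NAT8 family of acetyltransferases 1 relative shared the course of Nat8. Nat8f5 was at 2.30 TPM in wild type, 4.78 TPM in Tug1-/- and 2.13 TPM in rescue, or 2.08-fold above wild type and 2.25-fold above rescue in Tug1-/-. Nat8f6 was also highest in Tug1-/-, at a level where ratios are not read, with 0.214, 0.480 and 0.245 TPM. Nat8f1 differed by less than 1.5-fold, at 4.72, 5.92 and 4.32 TPM, and Nat8f4, the most abundant, went the other way from wild type at 31.4, 25.4 and 25.6 TPM. Nat8f2 was at 0.545, 0.569 and 0.532 TPM, Nat8f3 did not exceed 0.0546 TPM, and Nat8l, the brain enzyme that makes N-acetylaspartate, was at 0.991, 1.13 and 1.14 TPM. The other steps of the mercapturate pathway, the gamma-glutamyl transferases, dipeptidases and acylases and the aminopeptidase gene Anpep, comprised 10 listed genes, of which 8 reached 1 TPM. Of these, 1 was past 1.5-fold lower in Tug1-/-, the gamma-glutamyl transferase Ggt1 with 7.20 TPM in wild type, 1.45 TPM in Tug1-/- and 1.0 TPM in rescue, and none was past the fold between Tug1-/- and rescue. The median log2 ratio of the list was 0.01 for Tug1-/- over wild type.

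Nat8 shares sequence with its relatives. Of the distinct stretches of 50 bases in the Nat8 transcript 5.68% also occurred in transcripts of other genes, each of them in Nat8b-ps. For Nat8f5 the share was 9.28%, all of it with Nat8f6. The authors counted only reads that mapped to 1 place, and how many reads this left out was not tested. For Vmn1r181 the share was 3.85%, the largest part of it with its neighbour V1rd19, for Stk32a it was 0.230%, and Aqp2, Adam23 and Gm28181 shared no such stretch.

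Neither of the other 2 STK32 kinases followed Stk32a, which for 2 genes is what the share of 0.944% over all genes would mostly give. Stk32b was at 2.81 TPM in wild type, 2.65 TPM in Tug1-/- and 2.63 TPM in rescue, and Stk32c at 4.75, 4.49 and 4.16 TPM. Both relatives were above Stk32a in wild-type testes, and Stk32c alone was above it in Tug1-/- testes.

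No other ADAM gene with at least 1 TPM shared the course of Adam23, which 0.944% of all genes took, so this says nothing particular of the family. Of 33 ADAM genes listed 18 were above 50 TPM in wild-type testes, where many of them serve sperm surface functions, and only 1 was below Adam23. Without Adam23, 31 reached 1 TPM, none was past 1.5-fold higher in Tug1-/-, 3 were lower, and 1 was lower in rescue than in Tug1-/-. The lower ones were Adam7, Adam28 and Adam33. Adam7, an ADAM of the epididymis, was at 326 TPM in wild type, 39.8 TPM in Tug1-/- and 0.0193 TPM in rescue, and Adam28 at 34.2, 0.0145 and 0.0133 TPM. The closest relatives of Adam23 were Adam22, at 2.09, 2.32 and 1.59 TPM, and Adam11, at 8.21, 9.16 and 8.70 TPM, both of which are catalytically inactive as well. Of the LGI genes, which encode secreted ligands of this subfamily, Lgi4 was at 0.912, 1.13 and 1.28 TPM and Lgi1, Lgi2 and Lgi3 stayed under 1 TPM in every group.

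Vmn1r181 was the highest, in all 3 groups, of the 55 listed receptors whose symbols begin with Vmn1r. Older symbols kept 2 further V1R genes out of that count. The neighbour V1rd19 had the same order of group means as Vmn1r181, at 0.165 TPM in wild type, 0.383 TPM in Tug1-/- and 0.147 TPM in rescue, and V1ra8 was at 0.900, 1.0 and 1.03 TPM. Of the 54 others with such symbols 9 reached 1 TPM, of which 1 was past 1.5-fold higher in Tug1-/-, 1 lower, and none past it between Tug1-/- and rescue, with median log2 ratios of -0.04 and -0.25. Of 52 V2R genes listed, 7 reached 1 TPM, none was past 1.5-fold between Tug1-/- and wild type, and 1 was past it lower in rescue than in Tug1-/-. Omp, a marker of olfactory and vomeronasal neurons, was at 0.900 TPM in wild type, 0.0677 TPM in Tug1-/- and 0.0711 TPM in rescue, under 1 TPM throughout, where ratios are not read.

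The counts of genes past the fold within 500 kb of a member's start stand beside 3.12% higher and 3.78% lower in Tug1-/- over all genes. For 3 of the 6 members, Aqp2, Stk32a and Vmn1r181, no neighbour with at least 1 TPM shared its course, which 0.944% of all genes took. Below 1 TPM, 2 adjacent genes had the order of their member: V1rd19, 15.0 kb from Vmn1r181, and the pseudogene Gm19503, 28.6 kb from Gm28181, the latter at 0.772 TPM in wild type, 0.283 TPM in Tug1-/- and 0.771 TPM in rescue. The 14 neighbours of Vmn1r181 with at least 1 TPM had log2 ratios of Tug1-/- over wild type between -0.07 and 0.31. Near Stk32a, 7 genes reached 1 TPM and 1, the small nuclear RNA Gm22264, was past 1.5-fold higher in Tug1-/-. Dpysl3, the next gene, lies on the minus strand with its nearer end 3.50 kb beyond Stk32a and was at 160 TPM in wild type, 159 TPM in Tug1-/- and 155 TPM in rescue. The kit does not mark strand, and whether strand was used in counting is not stated in the sources used here, so reads of Stk32a and of a gene on the other strand could not be told apart where they overlap. No gene listed for testes overlaps Stk32a, Aqp2, Nat8, Gm28181 or Vmn1r181.

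Near Nat8, 19 genes reached 1 TPM and Nat8f5, whose start lies 11.1 kb away, was the only one past 1.5-fold. Near Aqp2 the pattern was different. Of 30 genes with at least 1 TPM, 1 was past 1.5-fold higher in Tug1-/- and 3 were lower. The higher one was Aqp5, 6.30 kb beyond the end of Aqp2, whose rescue mean was 1.04-fold its Tug1-/- mean. On the other side Faim2, an inhibitor of Fas-induced death of neurons, was at 1.78 TPM in wild type, 0.436 TPM in Tug1-/- and 0.296 TPM in rescue. Of these 3 adjacent genes Aqp2 alone was within 1.5-fold of wild type in the rescue mean. The other 2 lower genes, Kcnh3 and the small nuclear RNA Gm25897, were higher again in rescue, Kcnh3 with 3.10, 1.37 and 2.27 TPM in the order wild type, Tug1-/- and rescue.

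Within Adam23 lies the small nuclear RNA gene Gm22281, chr1:63575488-63575590 on the minus strand, which was at 1.16 TPM in wild type, 2.14 TPM in Tug1-/- and 0.975 TPM in rescue. Without strand its reads and those of Adam23 pre-RNA cannot be told apart, and it was the only one of 13 neighbours of Adam23 with at least 1 TPM that was past 1.5-fold in Tug1-/-. Of 12 neighbours of Gm28181 with at least 1 TPM, 2 were past 1.5-fold lower in Tug1-/-. One of them, AC113282.1, whose start is 368 kb away, followed the course of Gm28181 with 1.13 TPM in wild type, 0.352 TPM in Tug1-/- and 0.818 TPM in rescue. It came above the 1 TPM filter only through its wild-type mean, which favours such a course. Fam129a, the next gene on the side of its start, was at 20.4, 22.9 and 20.4 TPM.

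**Figure D3:**
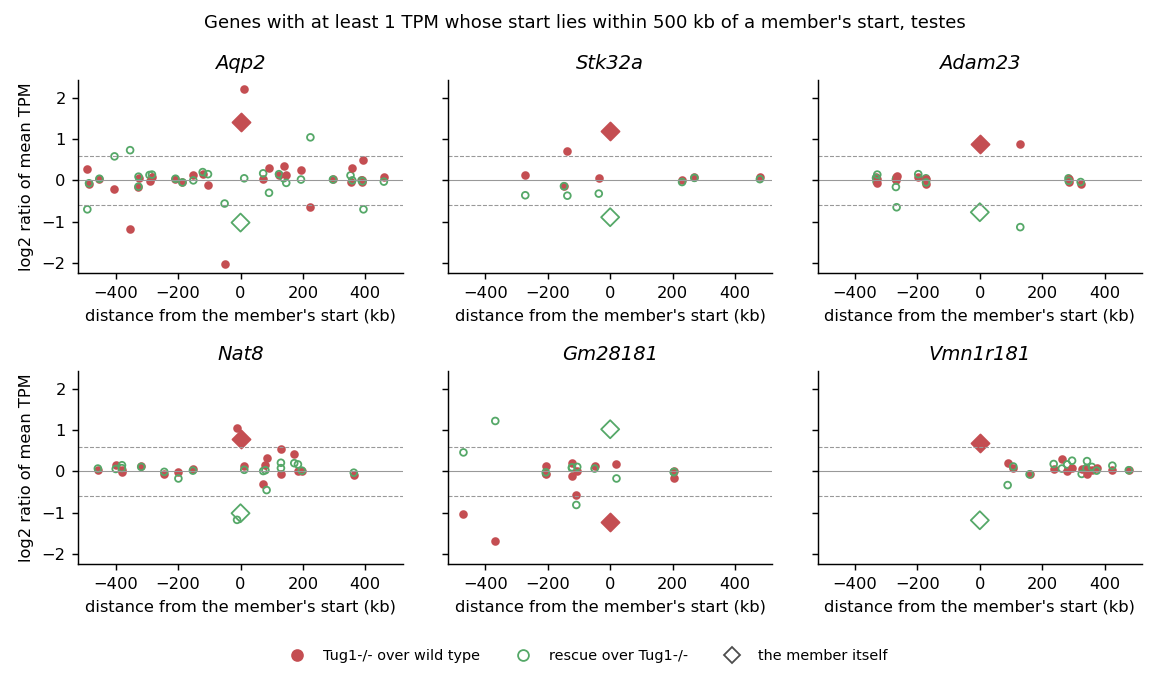
Log2 ratios of mean TPM (vertical) of genes with at least 1 TPM in testes against the distance in kb of their start from each member's start (horizontal), for Tug1-/- over wild type (filled) and rescue over Tug1-/- (open), with the member as diamonds and dashed lines at 1.5-fold. Most neighbours lie near 0, Nat8f5 lies beside Nat8 with both ratios, and Aqp5 lies beside Aqp2 at 2.22 and 0.05.

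Outside testes the members differed widely in level, and their ratios between genotypes stand beside the shares over all genes. Of the 42 combinations of 6 members and 7 tissues 24 were listed and 12 reached 1 TPM. Of these 12, 3 had the higher mean in Tug1-/- and 9 the lower, with log2 ratios from -0.53 to 0.65, and 1 was past 1.5-fold. In these tissues the share of all genes with at least 1 TPM that were past 1.5-fold in either direction was lowest in heart, at 4.91%, and highest in spleen, at 11.1%. It was 6.53% in liver, 6.66% in brain and 8.26% in MEFs, and reached 8.53% in eyes and 8.55% in prostate. A count of 1 in 12 is 1 gene, and no more can be read from it.

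That 1 was Nat8 in liver, at 32.1 TPM in wild-type mice and 50.3 TPM in mutants, or 1.57-fold higher, from 3 mice a genotype and with a mean scaled count of 829 reads per library. Liver had the highest Nat8 level of the tissues, 3.35-fold that of wild-type testes. In brain Nat8 was lower in Tug1-/-, at 4.67 against 3.24 TPM, and in eyes higher, at 1.65 against 2.19 TPM, on mean scaled counts of 22.3 and 29.5 reads. Spleen was at 0.494 and 0.572 TPM, and Nat8 was not listed for heart, MEFs or prostate, where genes with fewer than 3 reads in every library had been removed.

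Adam23 was listed in all 8 tissues, and testes was near the low end. Brain came first with 43.3 TPM in wild-type mice and 41.2 TPM in mutants, 51.1-fold above wild-type testes. Spleen followed with 11.1 and 9.12 TPM, MEFs with 10.9 and 9.57 TPM, eyes with 8.51 and 6.94 TPM and liver with 1.29 and 1.55 TPM. Testes came sixth by wild-type mean, before heart with 0.490 and 0.388 TPM and prostate with 0.410 and 0.586 TPM. In brain, eyes, MEFs and spleen, on mean scaled counts from 1888 to 3484 reads per library, the Tug1-/- mean was the lower one, by 1.05-fold to 1.23-fold, and in liver, on 456 reads, it was the higher one by 1.20-fold.

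Stk32a was also highest in brain, at 15.0 TPM in wild-type mice and 13.2 TPM in mutants, which was 12.3-fold above wild-type testes. Eyes had 9.60 and 8.66 TPM and prostate 2.70 and 2.51 TPM, both above wild-type testes. MEFs had 0.925 and 0.939 TPM, heart 0.596 and 0.745 TPM and spleen 0.251 and 0.123 TPM, and liver did not list it.

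Aqp2, Gm28181 and Vmn1r181 had their highest mean in testes. Aqp2 in eyes was at 1.68 TPM in wild-type mice and 1.16 TPM in mutants, and wild-type testes stood 2.93-fold above wild-type eyes. In heart it was at 0.143 and 0.152 TPM, in prostate at 0.0552 and 0.283 TPM on a mean scaled count of 2.68 reads, and in brain and spleen the Tug1-/- mean is listed at 0. Vmn1r181 was listed only in eyes, at 0.0418 and 0.0374 TPM, and in heart, at 0.0189 and 0.0147 TPM, so that wild-type testes were 63.4-fold above eyes. Gm28181 was listed in no tissue but testes. No spread was used for any mean, so which of these tissues differ beyond their replicates was not assessed here.

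**Figure D4:**
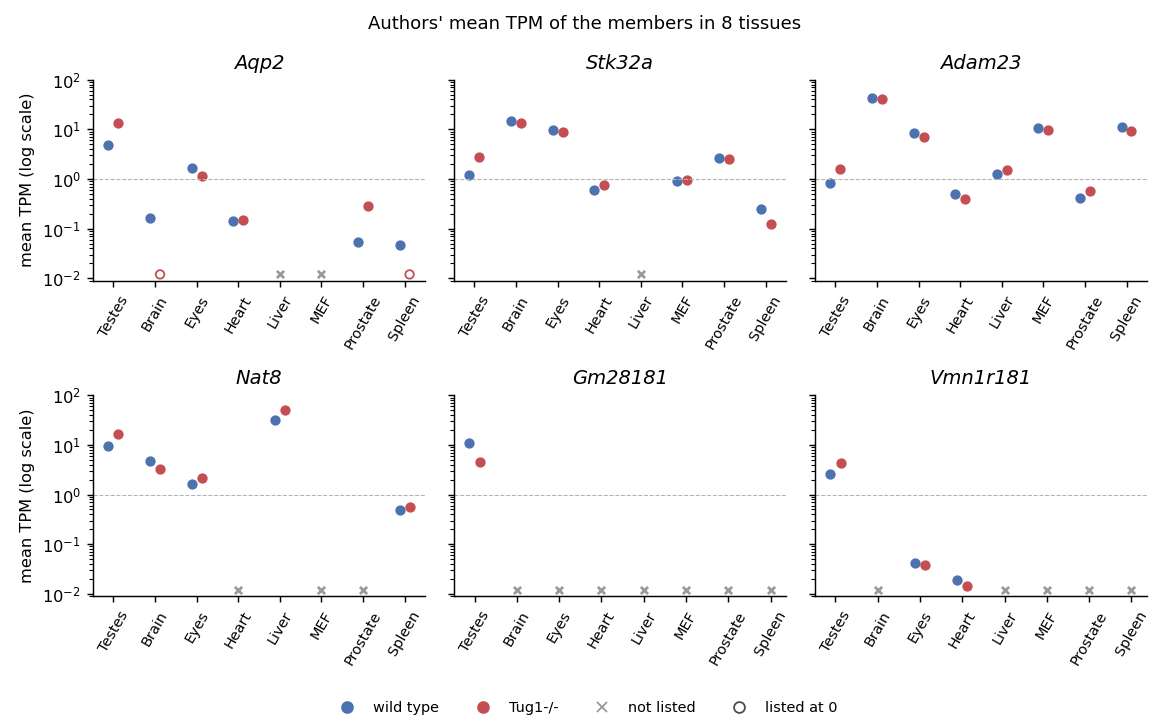
Mean TPM on a log axis of each gene in wild-type (blue) and Tug1-/- (red) samples of testes and 7 other tissues, with crosses for tissues that do not list the gene, open circles for means listed at 0 and a dashed line at 1 TPM. Adam23 and Stk32a are highest in brain, Gm28181 has points in testes alone, and Nat8 in liver goes from 32.1 to 50.3 TPM.

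Over all 17 group means of the 8 tissues, the gene whose profile was most like that of Nat8 was Nat8f5, with a Pearson correlation of 0.978 on log2 of TPM plus 0.1. Next came Elovl2, an elongase of polyunsaturated fatty acids, with 0.971. For Adam23 these were Stim2, a calcium sensor of the endoplasmic reticulum, and Ttc39b, for Stk32a Scrn1 and Atp6v0e2, and for Aqp2 Dusp13 and Gm2093, with correlations from 0.972 to 0.988. For Vmn1r181 they were Gm25437 and AC154816.2, at 0.996, and for Gm28181 Gm24777 and AC131745.1, at a still higher value. These values describe a likeness across tissues, in which the points come from shared libraries and a gene that is not listed was set to 0, and a gene found in testes alone is like any other such gene. The 17 means include the testes means that chose the members, and only genes with at least 1 TPM in a testes group were compared. The correlations are thus in part the values of the choice again.

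Markers of several cell types differed between the testes group means, and these values stand beside every testes ratio above. In bulk testes fewer cells of a type and less RNA per cell cannot be told apart. The sample descriptions pair the 2 deposited tables with the tissues the other way round, and the table used here as testes was taken from its own name and its germ cell genes. Markers of elongating spermatids (Prm1, Prm2, Tnp1, Tnp2 and Odf1) summed to 51919 TPM in wild type, 49228 TPM in Tug1-/- and 47996 TPM in rescue. Epididymis markers varied most. The 7 genes of that list summed to 3274 TPM in wild type, 810 TPM in Tug1-/- and 9.51 TPM in rescue. Of these 7, 6 were past 1.5-fold lower in Tug1-/- and 1, Crisp1, was higher. Without Crisp1 the sums were 2848, 49.2 and 9.17 TPM. Lcn5, which encodes a retinoic acid binding lipocalin of the epididymis, was at 680 TPM in wild type, 0.0155 TPM in Tug1-/- and 0.132 TPM in rescue. Crisp1, a sperm-coating protein of the epididymis, was at 427 TPM in wild type, 760 TPM in Tug1-/- and 0.348 TPM in rescue, and made up most of the Tug1-/- sum. The part of epididymal RNA in the members' ratios was not tested.

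Markers of Leydig cells, which make testosterone and Insl3, were higher in part. All 6 reached 1 TPM, 3 were past 1.5-fold higher in Tug1-/-, and 2 of these were past it lower in rescue. Insl3 was one of the 2, and Star, which brings cholesterol into mitochondria for steroid synthesis, the other, at 41.5 TPM in wild type, 68.7 TPM in Tug1-/- and 44.5 TPM in rescue. Cyp11a1, which makes pregnenolone, was highest in rescue at 43.2, 75.5 and 83.0 TPM, as were Lhcgr, the luteinizing hormone receptor, at 6.33, 9.46 and 9.93 TPM and Hsd3b1 at 107, 112 and 131 TPM. Cyp17a1, the most abundant of the 6 and an enzyme of androgen synthesis, was at 235, 341 and 315 TPM, under 1.5-fold in both contrasts. The list as a whole summed to 490, 751 and 649 TPM, and its median log2 ratio was 0.65 for Tug1-/- over wild type and -0.02 for rescue over Tug1-/-. The peritubular and smooth muscle list summed to 107, 149 and 123 TPM, in which Des, the muscle filament desmin, was at 4.09, 8.12 and 4.62 TPM. Of the adrenal cortex list of 6 genes 5 reached 1 TPM, and 2 of them were past 1.5-fold higher in Tug1-/- and past it lower in rescue. Mrap, the accessory protein of the corticotropin receptor, was at 4.83, 8.21 and 4.75 TPM and Cyp21a1, the steroid 21-hydroxylase, at 1.99, 3.12 and 1.22 TPM. The remaining 3 of these 5 were Akr1b7 at 6.4, 7.08 and 5.52 TPM, Cyp11b1 at 1.77, 1.63 and 1.61 TPM and Cyp11b2 at 1.70, 1.87 and 1.52 TPM. Among genes of the Leydig, muscle and adrenal lists with at least 1 TPM, only Insl3, Star, Des, Mrap and Cyp21a1 were past 1.5-fold in both contrasts. Cyp11a1 and Cnn1, the latter at 4.15, 7.19 and 5.07 TPM, were past it between Tug1-/- and wild type alone. The others were past it in neither contrast. The part of these cell types in the members' ratios was not tested.

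The Sertoli, macrophage and spermatocyte lists had their highest sum in rescue. Sertoli cell markers, 6 of 6 with at least 1 TPM, summed to 177 TPM in wild type, 245 TPM in Tug1-/- and 276 TPM in rescue, the 6 macrophage markers to 74.8, 95.1 and 106 TPM, and the spermatocyte markers to 922, 994 and 1056 TPM. None of the genes of these 3 lists was past 1.5-fold in either contrast. Endothelial markers summed to 11.7, 13.4 and 13.0 TPM, with none past 1.5-fold. Spermatogonial markers summed to 58.8, 55.6 and 62.7 TPM, and 1 of the 5 was past the fold: Gfra1, a receptor subunit for GDNF on spermatogonial stem cells, was at 11.1, 3.84 and 4.0 TPM. The 4 round spermatid markers had median log2 ratios of 0.04 for Tug1-/- over wild type and -0.09 for rescue over Tug1-/-. Neuronal markers summed to 1.70 TPM or less in each group.

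**Figure D5:**
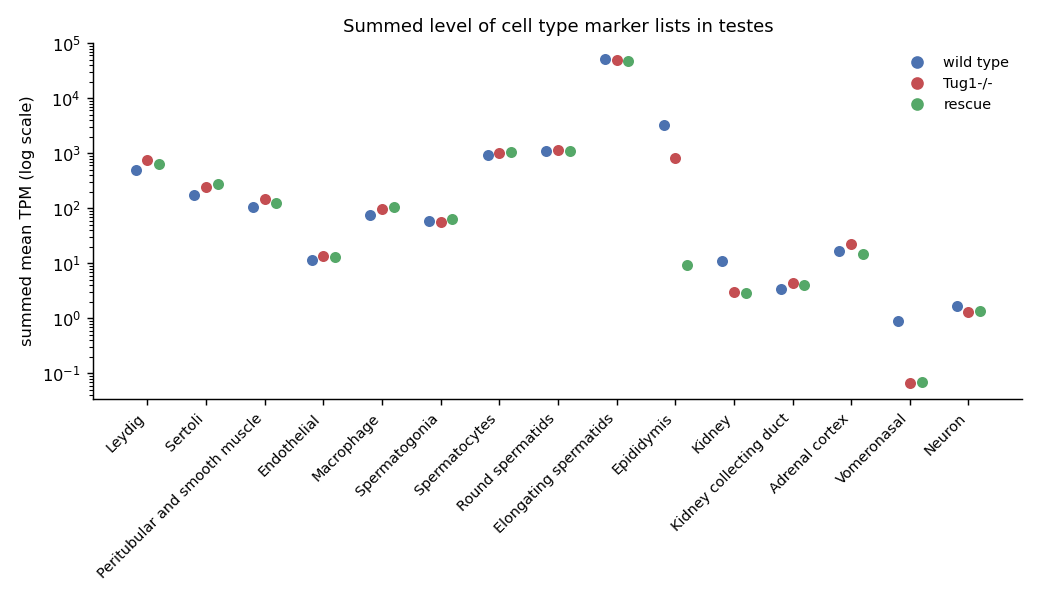
Summed mean TPM on a log axis of each cell type marker list in wild-type, Tug1-/- and rescue testes, with 1 point per group. The epididymis list goes from 3274 to 810 to 9.51 TPM, of which Crisp1 alone makes up 760 TPM in Tug1-/-. The Leydig, peritubular, adrenal, round spermatid, endothelial and collecting duct lists are highest in Tug1-/-.

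The library codes in the labels fall into 2 blocks of numbers. Wild type and Tug1-/- each have 3 libraries in the lower block and 1 in the higher, whereas rescue has 1 in the lower and 2 in the higher. The labels do not say what the blocks stand for, no value within a block was analysed here, and the part of this split in the ratios to rescue was not tested.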

How the data were processed

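RNA-seq reads (TruSeq RNA kit, paired ends of 101 bases, as the study's methods give them) had been processed by the authors with CASAVA 1.8.2, STAR against mm10 and featureCounts on GENCODE annotation, release 16 of the mouse. A gene stayed in a table if at least 1 replicate had 3 or more reads. The deposited values used here are the authors' group means in TPM, and, outside testes, the authors' mean normalised count per library; these 2 units fill 6 of the 40 columns in the 2 tables. The other columns hold identifiers and the authors' own comparisons (fold changes, standard errors, test statistics, p-values) and were not used. No column holds a single sample, so depth per sample in testes is unknown and no error, interval or test could be computed from the means. Because the authors' standard errors and p-values were not used, the precision of the means and ratios was not assessed here. Of 52 samples 46 belong to groups of these tables, and 6 F1 hybrid testes were not analysed here.

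Ratios of means were computed without a pseudocount in Python 3 among genes with at least 1 TPM in a group compared and counted at 1.5-fold. The counting of genes past the fold was tested on simulated data. The genes named are the 6 members, their families, the nearest gene on each side, the 2 genes closest in the plane of testes ratios, the 2 with the highest correlation over 17 group means and the marker genes. The members, lists and motifs were chosen with earlier results of these data known. Names other than these (genes of a list singled out beside its count, and neighbours past the fold) were chosen after their values were seen. Alternatives were other pseudocounts, scalings, folds and filters. Promoters are from RefSeq and transcripts from GENCODE, release 21 of the mouse, both on GRCm38, the build of the tables.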

Additional observations from a re-analysis of the deposited data

How the results depend on the processing

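The 12 testes ratios of the members were recomputed under 4 other pseudocounts or scalings, giving 48 values. All 48 kept their direction, and 10 moved by more than 0.1 on the log2 scale, all of them under a pseudocount of 1 TPM. All 6 members were past 1.5-fold in both contrasts in the ratios as reported. At 2-fold 2 members, Aqp2 and Gm28181, were left, and with at least 5 TPM required 3, since Stk32a, Adam23 and Vmn1r181 are lower. With the pseudocount of 1 TPM 4 were left, since Adam23, at 0.48 and -0.42, and Vmn1r181, at 0.53 for Tug1-/- over wild type, came under the fold. In other tissues 1 pair of member and tissue was past the fold, against 4 at the lowest fold tried, 0 at 2-fold and 4 with a filter at 0.1 TPM.

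The background counts moved with the limits by construction. Genes past the fold between Tug1-/- and wild type numbered 1564, against 3510 at the lowest fold tried, 723 at 2-fold, 4800 with at least 0.1 TPM, 465 with at least 5 TPM, 5924 with no filter and 825 with a pseudocount of 1 TPM. Between rescue and Tug1-/- the 1289 genes became 3031, 587, 4737, 297, 5934 and 544 in the same order. The 373 reversed genes became 1029, 137, 1687, 75, 2243 and 125. Of the reversed genes, the share that was higher in Tug1-/- was 57.4%, but 74.7% with at least 5 TPM and 79.2% with the pseudocount of 1 TPM. Between Tug1-/- and wild type the share of higher genes was 45.2%, with 53.8% at the lowest fold tried, 34.2% at 2-fold and 40.8% with the median ratio set to 0. Between rescue and Tug1-/- it was 30.2%, and 13.8% with at least 5 TPM.

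No paired analysis was possible because the tables hold group means only. For the same reason leaving out a replicate was not run.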
